A study of Mus musculus with 30 samples.

Results

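Melanin synthesis is described here through 8 genes: Tyr, Tyrp1, Dct, Pmel, Mlana, Slc45a2, Oca2 and Gpr143. They were looked up by symbol in a table of 51904 genes, and each of the 8 had a row. The table holds transcript levels of the retinal pigment epithelium (RPE), the pigmented cell layer behind the photoreceptors, from 30 untreated wild-type C57BL/6 male mice of 10 to 13 weeks. Each sample came from 1 eye of 1 mouse, with 16 left and 14 right eyes. The mice fall into 6 groups of 5 by zeitgeber time (ZT), taken at 0, 2, 4, 9, 14 or 19 h, where ZT0 is lights-on by convention and 7 h by the labelled clock. The RPE had been lifted with forceps off the choroid of stored eyecups.

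Melanin is made in melanosomes, where Tyr oxidises tyrosine and its product DOPA, Dct converts dopachrome, and Tyrp1 acts on a later intermediate in the mouse. Pmel builds the fibrils on which the pigment is laid down, and the other members sit in the melanosome membrane. In the RPE most melanin is made during development and the granules then last long, and melanocytes of the neighbouring choroid use the same genes.

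The sums of FPKM (fragments scaled by transcript length and mapped depth) lay between 700956 and 922481 per sample, and the depth, estimated from the step between low values, between 12.4 and 23.0 M reads (M: mega). In 29 samples 16723 to 19374 genes were above 0. ZT14 replicate 3 had 12754, and it listed 537 genes at 0 that had a median of at least 10 FPKM, against 1 to 22 in the other samples. Of 9 RPE markers 8 had a median of at least 1 FPKM, led by Rgr with 2405 FPKM, and Best1 was near absent with a median of 0.607 FPKM. The summed RPE markers ranged from 2660 to 10239 FPKM. Markers of surface epithelium (cornea and conjunctiva) summed to 1804 to 16845 FPKM, and those of muscle to 1849 to 22015 FPKM, so the samples held other eye tissues in varying amounts. Of 7 melanocyte markers 6 had a median of at least 1 FPKM, among them Kit with 25.3 FPKM and Sox10 with 36.3 FPKM, while Mc1r had 0.547 FPKM. Their sum lay between 116 and 247 FPKM. In such bulk samples, fewer cells of a type and less RNA per cell cannot be told apart.

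Promoter sequence was at hand for Tyr, Tyrp1, Dct and Oca2, 4 of the 8 genes (RefSeq, build GRCm38.p6). It is shown because Mitf, the pigment cell regulator, is known to bind CATGTG, 1 form of the E-box CANNTG. Whether these letters bear on the levels of the genes was not tested. The letters CATGTG, read on either strand, are in capitals. All 4 genes had a match in the 250 bases before the start, against 12.3% of 32851 promoters of that length. The promoters of Tyr and Dct are given whole, since Tyr varied most and Dct little. For Tyrp1 and Oca2 the 30 bases around the match are given, all 5′ to 3′ on the strand of the gene.
Tyr (chr7:87493513-87493762, minus strand): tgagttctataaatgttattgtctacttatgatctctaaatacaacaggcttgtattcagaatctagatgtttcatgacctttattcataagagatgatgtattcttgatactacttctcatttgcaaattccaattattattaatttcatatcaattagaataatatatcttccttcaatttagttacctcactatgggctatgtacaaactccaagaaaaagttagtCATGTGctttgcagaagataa
Dct (chr14:118052247-118052496, minus strand): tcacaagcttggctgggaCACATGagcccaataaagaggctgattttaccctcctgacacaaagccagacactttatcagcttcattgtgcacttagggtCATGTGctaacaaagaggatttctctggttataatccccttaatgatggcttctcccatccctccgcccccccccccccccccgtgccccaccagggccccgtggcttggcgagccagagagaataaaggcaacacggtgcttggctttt
Tyrp1 (chr4:80834155-80834184, plus strand): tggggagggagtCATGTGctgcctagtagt
Oca2 (chr7:56239561-56239590, plus strand): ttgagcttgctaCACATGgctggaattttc
In Tyr the match began 21 bases before the RefSeq start and in Tyrp1 46 bases before it. Both carry the longer AGTCATGTG, the M-box, which 0.228% of all promoters hold. It is absent from the 250 bases of Dct and Oca2. The shares over all promoters are given for scale, and no enrichment was tested. The GENCODE annotation starts Tyrp1 earlier, at chr4:80834123, so by that start its match lies inside the gene. Dct had 2 matches, 232 and 150 bases before the start, and Oca2 had 1, at 186 bases. The longer TCATGTG, in which both Dct matches also lie, was in 3.25% of all promoters. A match of letters does not show that a factor was bound there.

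By deposited FPKM Dct was the highest member and Gpr143 the lowest. Dct had a median of 1491 FPKM over the 30 samples, Tyrp1 778, Pmel 590, Mlana 507, Tyr 93.3, Slc45a2 40.8, Oca2 40.2 and Gpr143 21.3 FPKM. FPKM is scaled by length, but the annotation that set the lengths is not given in the sources used here. For Dct the longest coding transcript has 2202 bases and all exons together 5895. The order therefore holds for the deposited values. The tests below cover the spread among samples and not an error in a length. Neighbours in this order differed within samples in 6 of 7 comparisons (permutation test of the log2 differences, two-sided, adjusted p = 1.17e-05 in each, from the smallest p that 100000 sign flips can give). The exception was the pair of transporters: Slc45a2 was above Oca2 in 11 of 30 samples (permutation p = 0.125). Without ZT19 replicate 3 this pair passed too, with Oca2 above Slc45a2 in 19 of 29 samples (permutation test, adjusted p = 0.045). Dct was above Tyrp1 in 30 of 30 samples and Tyrp1 above Pmel in 29 of 30. The 8 genes together summed to 2067 to 4983 FPKM with a median of 3470 FPKM. Both ends were ZT4 samples, replicate 1 and replicate 3.

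Tyr, the rate-limiting enzyme (chr7:87424771-87493512, minus strand, up to 5 exons), varied most among the mice, with a coefficient of variation of 42.0%. At ZT0 its 5 samples had 46.7, 96.5, 115, 85.5 and 42.9 FPKM, at ZT2 64.1, 33.8, 119, 73.3 and 50.02 FPKM, and at ZT4 30.0, 126, 72.04, 112 and 77.7 FPKM. At ZT9 they had 128, 105, 115, 82.9 and 149 FPKM, at ZT14 114, 85.3, 42.2, 90.1 and 117 FPKM, and at ZT19 97.2, 70.0, 121, 141 and 211 FPKM. The mean was lowest at ZT2 with 68.0 ± 32.0 FPKM (SD, n = 5) and highest at ZT19 with 128 ± 53.6 FPKM, and the ranges of these time points overlapped. Mice of the same time point differed up to 4.20-fold, at ZT4.

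Dct, the dopachrome tautomerase (chr14:118012790-118052244, minus strand, up to 8 exons), was steadier, with a coefficient of variation of 21.5%. At ZT0 it had 1340, 1540, 1752, 1547 and 1153 FPKM, at ZT2 1195, 1095, 1666, 1426 and 1471 FPKM, and at ZT4 953, 2107, 2142, 1595 and 1620 FPKM. At ZT9 it had 1750, 1270, 1193, 1511 and 1793 FPKM, at ZT14 1269, 1331, 1150, 1952 and 1542 FPKM, and at ZT19 1470, 1391, 985, 2018 and 1898 FPKM. The time points overlapped, with both extremes at ZT4, and mice of the same time point differed most at ZT4 (2.25-fold) and ZT19 (2.05-fold). Tyrp1 (chr4:80834123-80851719, plus strand) lay between 276 and 1140 FPKM, with 623 ± 78.2 FPKM at ZT2 and 883 ± 161 FPKM at ZT19 (SD, n = 5). Its ZT2 range, 523 to 697 FPKM, ended just below its ZT19 range, 698 to 1063 FPKM, and of all genes tested 3.46% had no overlap between ZT2 and ZT19. In the other 7 genes every pair of time points overlapped. The enzymes did not keep a fixed ratio: Tyr per Dct ranged from 0.0309 in ZT2 replicate 2 to 0.123 in ZT19 replicate 3, and Tyrp1 per Dct from 0.289 in ZT4 replicate 1 to 0.816 in ZT14 replicate 3.

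The fibril genes were the steadiest beside Dct. Pmel (chr10:128704195-128720238, plus strand) ranged from 357 FPKM in ZT0 replicate 5 to 908 FPKM in ZT14 replicate 4. Of its exon bases 105 lie in exons of Dgka and 34 in exons of Cdk2, both on the opposite strand and with medians of 23.9 and 27.1 FPKM; whether reads were assigned by strand is not given in the sources used here. Mlana (chr19:29697824-29708634, plus strand), a small membrane protein that binds the Pmel protein in human cells, ranged from 377 to 827 FPKM, both at ZT4. Its time point means lay between 488 ± 104 FPKM at ZT2 and 592 ± 109 FPKM at ZT19 (SD, n = 5). On the log2(FPKM + 1) scale the SD of Dct, Pmel and Mlana over the 30 samples was 0.31, 0.33 and 0.30, against a median SD of 0.64 over the 16741 genes tested, while that of Tyr was 0.66. In mean FPKM Dct, Pmel and Mlana were above 99.8%, 99.3% and 99.2% of these genes, and Tyr above 93.4%. The SD was not compared among genes of like level.

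Slc45a2 (chr15:11000721-11029233, plus strand), a transporter that takes part in setting melanosome pH, ranged from 19.9 FPKM in ZT0 replicate 5 to 63.2 FPKM in ZT19 replicate 2. Oca2 (chr7:56239760-56536518, plus strand, up to 25 exons), whose protein carries a melanosomal chloride current, had 37.2, 42.0, 30.0, 40.7 and 23.3 FPKM at ZT0, 31.6, 21.5, 34.7, 38.0 and 46.7 FPKM at ZT2, and 20.9, 65.9, 39.6, 57.6 and 42.0 FPKM at ZT4. At ZT9 it had 48.4, 34.3, 30.3, 26.3 and 51.3 FPKM, at ZT14 33.5, 33.9, 94.6, 61.4 and 44.0 FPKM, and at ZT19 40.8, 52.1, 38.3, 59.3 and 52.1 FPKM. Its highest value, at ZT14, came from replicate 3, the sample with the many genes at 0. Without regard to time, Oca2 was 4.52-fold higher in that sample than in its lowest.

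Gpr143 (chrX:152781921-152808646, plus strand), a receptor of the melanosome membrane that is mutated in ocular albinism, had 12.5, 15.4, 24.2, 23.0 and 15.3 FPKM at ZT0, 12.4, 17.0, 28.2, 20.9 and 21.6 FPKM at ZT2, and 5.39, 32.7, 31.4, 30.6 and 22.0 FPKM at ZT4. At ZT9 it had 31.5, 16.6, 15.8, 18.2 and 13.9 FPKM, at ZT14 15.4, 9.88, 17.9, 24.2 and 27.2 FPKM, and at ZT19 16.8, 24.0, 27.1, 28.1 and 25.5 FPKM. Its lowest and highest values were both at ZT4. The lowest corresponds to an estimated 121 reads, the fewest behind any value of the 8 genes. The lowest value of each other member rested on 902 reads or more by the same estimate.

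**Figure D1:**
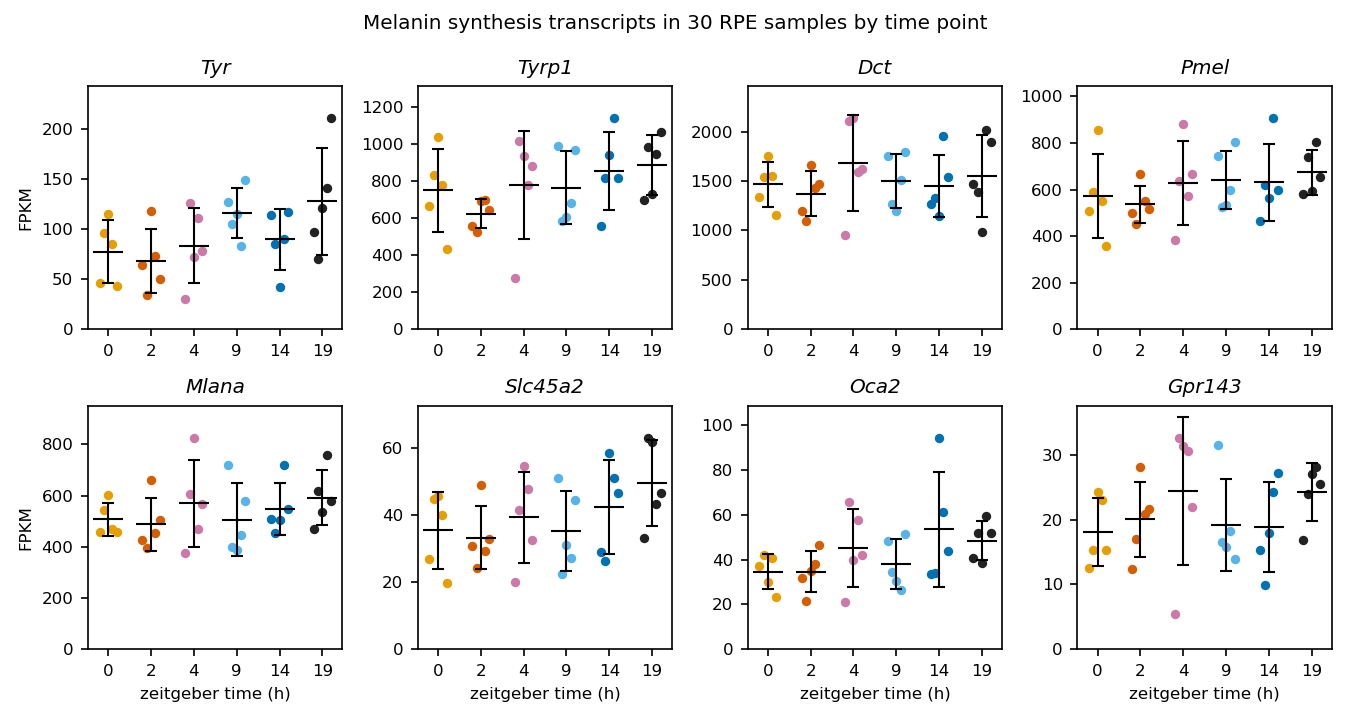
FPKM of each gene (vertical axis from 0, own scale) against zeitgeber time in h (horizontal axis, 6 time points, not to scale). Points are the 30 mice, and the bars are the mean ± SD of the 5 mice of a time point. The time points overlap in every gene except Tyrp1 at ZT2 and ZT19, and ZT4 replicate 1 is the low point of Tyrp1 (276 FPKM) and Gpr143 (5.39 FPKM).

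The study asked which transcripts of the RPE follow the time of day. None of the 8 melanin genes passed the threshold in the 24 h rhythm fit, in which 18 of 16741 genes did (0.108%; limma, Benjamini-Hochberg adjustment over all tested genes). At an unadjusted p under 0.05 the count was also 0 of 8, against 8.76% of all genes tested. The fitted amplitudes, the distance from mean to peak on the log2 scale, ran from 0.03 ± 0.10 (SE) in Dct to 0.31 ± 0.15 in Tyr. Their median was 0.15, against 0.22 over all genes tested. For Tyr the fitted peak fell at ZT14.2 h, with an adjusted p of 0.66 from limma. Oca2 and Slc45a2 each had an amplitude of 0.23, with SE of 0.11 and 0.12 and adjusted p of 0.67 and 0.70. In the test of any difference among the 6 time points 0 of 8 members passed, against 0.0717% of all genes, and 0 of 8 had an unadjusted p under 0.05 against 8.67%.

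Day and night were also not told apart by the test in any member. Day (ZT2, ZT4 and ZT9) was set against night (ZT14 and ZT19), and 0 of 8 members passed, against 5 of 16741 genes (0.0299%), with 0 of 8 against 10.5% at an unadjusted p under 0.05. The estimates were negative in 7 members and 0.02 in Dct, with a median of -0.23 against 0.02 over all genes tested. Of all genes tested 53.3% had an estimate above 0. Oca2 was lower by day by -0.37 ± 0.19 on the log2 scale (SE; 95% interval -0.75 to 0.01; adjusted p = 0.48, limma). Slc45a2 followed with -0.35 ± 0.19, Tyr with -0.31 ± 0.24 and Tyrp1 with -0.30 ± 0.18, and each interval included 0. The intervals reached as far as -0.80 in Tyr, and in Dct from -0.26 to 0.30.

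Between neighbouring time points 0 of 8 members passed in each of the 6 steps. The background was 0.0418% of genes for ZT0 minus ZT19, 0.0119% for ZT19 minus ZT14, and 0 for the other 4 steps (limma). At an unadjusted p under 0.05 there were 0 of 8 members in each step, against 3 to 13% of all genes. The largest step was that of Tyr from ZT19 to ZT0, -0.73 ± 0.37 (SE; 95% interval -1.49 to 0.03; adjusted p = 0.41, limma). In that step all 8 estimates were negative, from -0.73 in Tyr to -0.05 in Dct, while 48.6% of all genes tested were above 0. From ZT2 to ZT4 all 8 were positive, from 0.11 in Gpr143 to 0.32 in Oca2, against 48.1% of all genes. Each of these intervals included 0. The 8 genes varied together in the same samples, so their shared directions are not 8 separate results. The RPE markers and the surface epithelium markers differed between the same time points: their mean summed levels were 7615 and 2884 FPKM at ZT19, and 4421 and 12140 FPKM at ZT0. With the RPE marker score as a term in the fits, 0 of 8 members passed in each of these comparisons. As 0 of 8 also passed without the term, this count cannot show the part of these tissues in the estimates. The estimates did move with the term. The rhythm amplitude of Tyr was 0.082 with it and 0.31 without, and that of Gpr143 was 0.28 and 0.10. The day-night difference of Gpr143 was 0.19 with it and -0.08 without. What these shifts owe to the tissues was not tested.

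**Figure D2:**
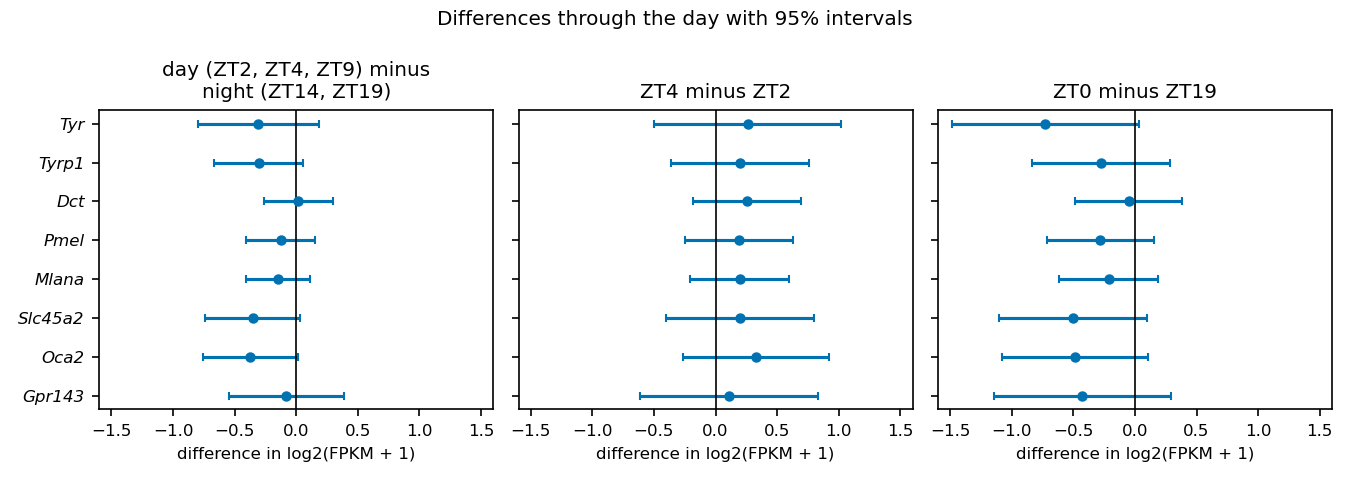
Difference in log2(FPKM + 1) of each gene (horizontal axis) for day minus night, ZT4 minus ZT2 and ZT0 minus ZT19. Points are limma estimates and bars their 95% intervals over 30 samples. Every interval includes 0, and that of Tyr for ZT0 minus ZT19, from -1.49 to 0.03, reaches farthest.

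The 8 genes varied together from mouse to mouse. All 28 pairs were positively correlated over the 30 samples (Pearson r from 0.37 to 0.87 and Spearman rho from 0.38 to 0.87; permutation tests, two-sided, Benjamini-Hochberg over the 28 pairs, adjusted p at most 0.044 for r and 0.039 for rho). Tyrp1 with Pmel had r = 0.87 (rho = 0.87), Pmel with Mlana 0.82 (rho = 0.83) and Dct with Pmel 0.78 (rho = 0.80). For these the adjusted p of r was 4.00e-05, 4.00e-05 and 4.67e-05, and that of rho 3.11e-05, from raw p at or near the smallest that the permutations can give. Tyr stood looser, from r = 0.37 with Oca2 (rho = 0.38) to 0.60 with Tyrp1 (rho = 0.51). After the time point means were taken out, 27 of 28 pairs passed. How many pairs of all genes tested would pass was not counted, so these counts do not set the 8 genes apart from other genes.

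The relation was not the same in all subsets of the mice. Without the 2 samples farthest from the median of the first gene of each pair, r ran from 0.11, for Tyr with Oca2, to 0.84. The samples left out were thus not the same in all pairs. Left eyes alone gave 27 of 28 pairs past the threshold (n = 16, permutation tests, r from 0.40 to 0.90) and right eyes 10 of 28 (n = 14, r from -0.16 to 0.87). In the run of 8 consecutive animal numbers, 818 to 825, 22 of 28 passed (r from 0.42 to 0.99). In the run of 10, 836 to 845, 0 of 28 passed, with r from -0.64 for Tyr with Oca2 to 0.85 for Pmel with Mlana. What an animal number run stands for is not in the labels. ZT14 replicate 3, the sample with the many genes at 0, was a right eye in the run of 10. ZT4 replicate 1, low in all 8 genes, was a left eye in the run of 8. Their part in the differences between these subsets was not tested. In the run of 10 the pairs among Tyrp1, Dct, Pmel and Mlana kept r between 0.40 and 0.85, and those of Tyr lay between -0.64 and 0.27.

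**Figure D3:**
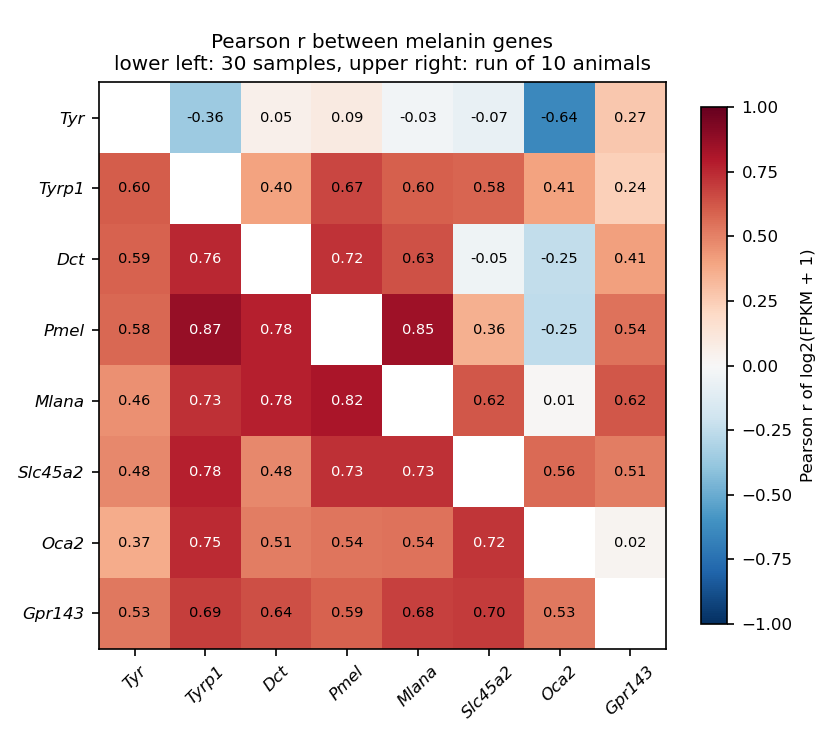
Pearson r of log2(FPKM + 1) for each pair of genes, by colour and number. The lower left triangle is over 30 samples (0.37 to 0.87) and the upper right triangle over the 10 animals with numbers 836 to 845 (-0.64 to 0.85), where the pairs with Tyr and Oca2 are weakest.

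In 5 of 30 samples all 8 genes were above their means, and in 5 all were below. The former were ZT4 replicate 2, ZT9 replicate 1, ZT14 replicate 4 and ZT19 replicates 4 and 5. The latter were ZT0 replicates 1 and 5, ZT2 replicates 1 and 2, and ZT4 replicate 1. ZT4 replicate 1 stood lowest: all 8 genes were among their 3 lowest values there, at a mean deviation of -1.01 on the log2 scale, and it had the lowest RPE marker score and the second highest surface epithelium score of the 30 samples. In ZT14 replicate 3 the genes did not move together: Tyr was 42.2 FPKM, with only ZT2 replicate 2 and ZT4 replicate 1 lower, while Oca2 had its highest value, 94.6 FPKM.

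**Figure D4:**
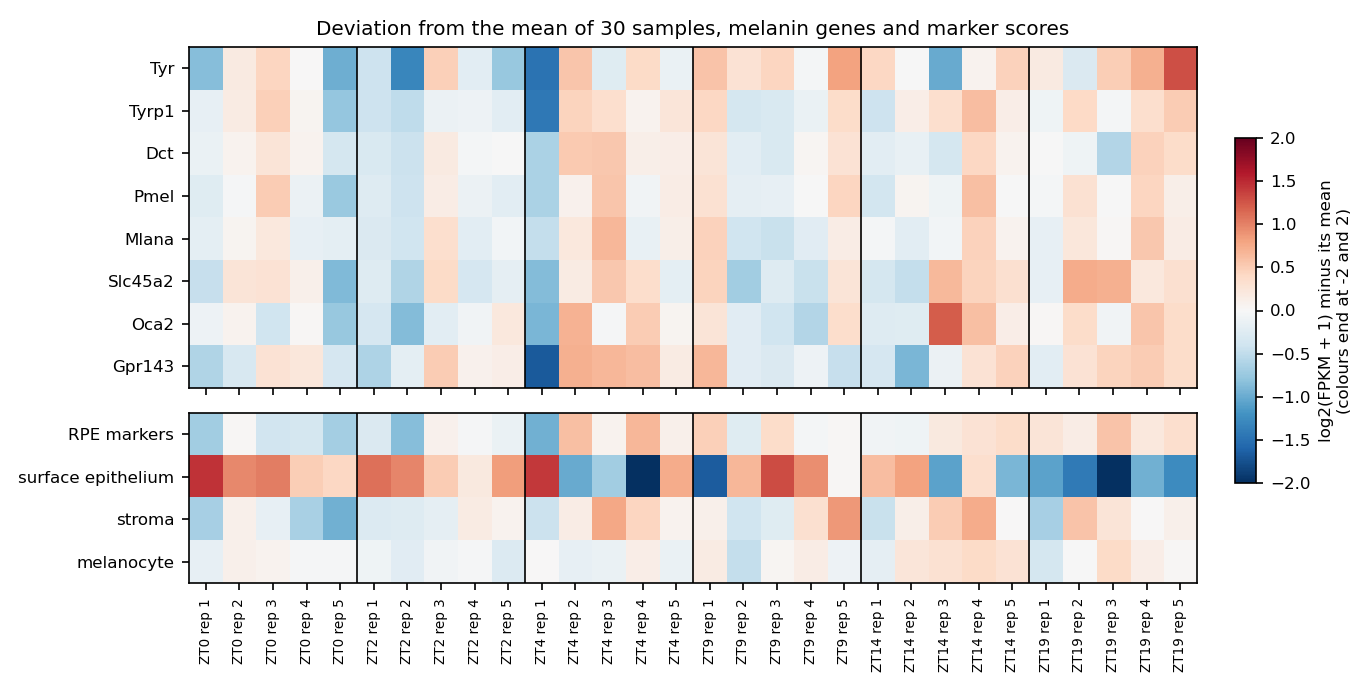
Deviation of log2(FPKM + 1) from the mean of 30 samples (colour, ending at -2 and 2) for the 8 genes (upper block) and for 4 marker scores (lower block), 1 column per sample, ordered by time point. ZT4 replicate 1 is low in all 8 genes and in the RPE markers and high in surface epithelium.

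Levels rose with the RPE marker score in 5 of 8 members when each time point had its own mean, and none of these calls held without 1 library. The score is the mean log2(FPKM + 1) of 9 RPE markers, Rpe65 and Rlbp1 of the visual cycle among them. Of all genes tested 2.84% passed, 1.85% with a positive slope (limma). The slope, in log2 units per unit of score, was 1.17 ± 0.22 (SE) for Gpr143 (adjusted p = 0.0026), 1.16 ± 0.25 for Tyr (0.0072), 0.91 ± 0.20 for Slc45a2 (0.0082), 0.83 ± 0.19 for Tyrp1 (0.011) and 0.83 ± 0.20 for Oca2 (0.024). It was 0.46 ± 0.16 for Dct, 0.42 ± 0.17 for Pmel and 0.38 ± 0.16 for Mlana, with adjusted p of 0.14, 0.20 and 0.21. The median slope of the 8 genes was 0.83 and that of all genes -0.01. Without ZT4 replicate 1, 0 of 8 members passed, the count over all genes fell from 475 to 95, and the slopes were 1.11 for Tyr (adjusted p = 0.23), 0.98 for Slc45a2 (0.14), 0.77 for Gpr143 (0.36), 0.75 for Oca2 (0.36) and 0.48 for Tyrp1 (0.52). The slopes of Tyr, Slc45a2 and Oca2 thus moved little and those of Gpr143 and Tyrp1 more, and all 8 stayed above 0. The count over all genes was also lower without ZT4 replicate 2 (287) and ZT4 replicate 4 (254). With a pseudocount of 0.1, 3 of 8 members passed.

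Other tissues moved with the same genes. For the correlations given here, the share of all genes tested that would pass was not counted. The surface epithelium score was negatively correlated with all 8 (r from -0.69 for Slc45a2 to -0.24 for Dct; 6 of 8 passed for r and 7 for rho; permutation tests adjusted over 96 relations of 8 genes with 12 scores), and the stroma score was positively correlated with all 8, 6 of which passed for r. The endothelium score was also positively correlated with all 8 (r from 0.37 for Tyr to 0.68 for Slc45a2), with 7 passing for r, and the macrophage score passed with 4 (r up to 0.68 for Slc45a2). With the stroma score as a further term 2 of 8 members passed with the RPE score, Tyr (adjusted p = 0.018) and Gpr143 (0.019), and with the surface epithelium score 1 did, Tyr (0.022). In r over all samples, the RPE score passed with 8 of 8 members (0.46 to 0.71) and with 7 of 8 in rho. Without the 2 samples farthest from the median score r was 0.27 to 0.61. Within the run of 10 animals r with the RPE score lay between -0.53 and 0.38, within the run of 8 between 0.77 and 0.91, in left eyes between 0.45 and 0.85 and in right eyes between 0.05 and 0.69.

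**Figure D5:**
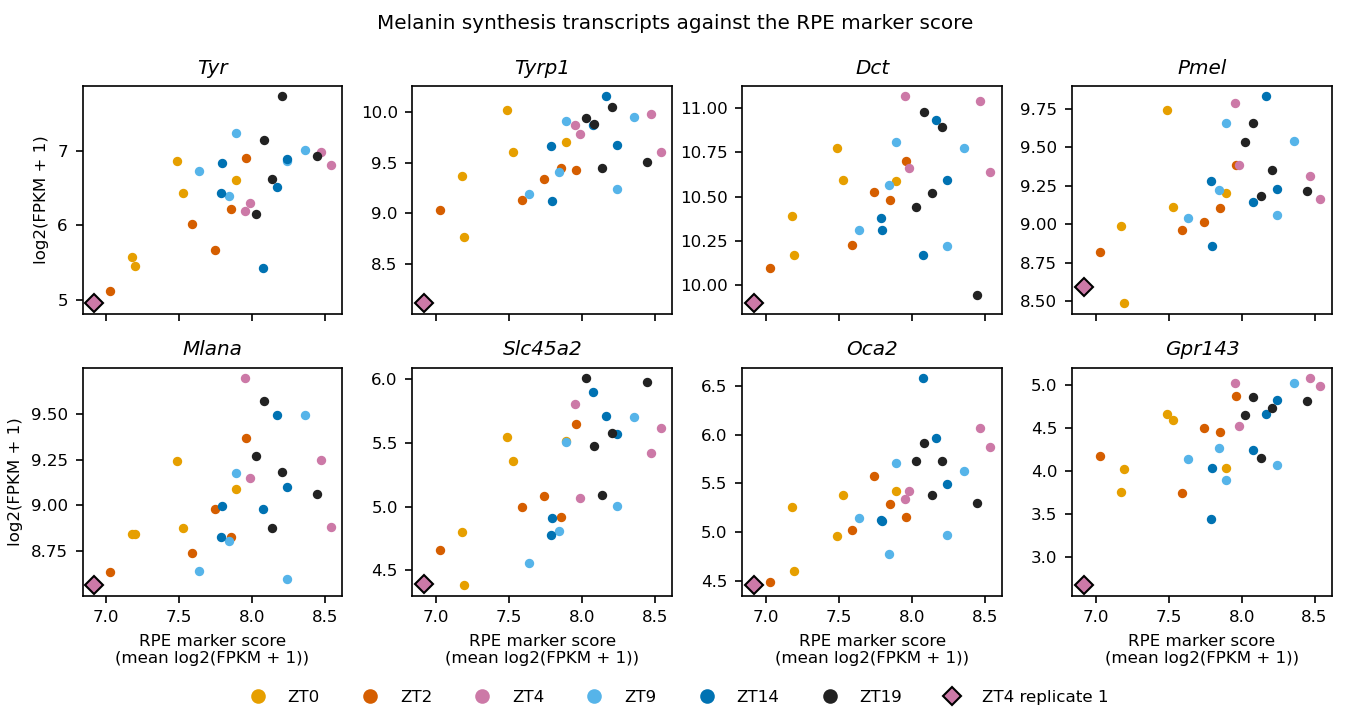
Log2(FPKM + 1) of each gene (vertical axis, own scale, not from 0) against the RPE marker score of the sample (horizontal axis), with colours for the time points. Each point is 1 of 30 mice, and the diamond is ZT4 replicate 1, the lowest in score, from 6.92 on this axis, and low in all 8 genes.

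With the melanocyte marker score in place of the RPE score, 0 of 8 members passed, and 0 of 16741 genes (0%) did. At an unadjusted p under 0.05 there was 1 member, Slc45a2 with a slope of 1.11 ± 0.44 (SE; adjusted p = 0.50, limma), against 8.57% of all genes. With both scores in 1 fit, the same 5 genes passed for the RPE score, where 1.94% of all genes did and 1.4% with a positive slope, and 0 for the melanocyte score, where 0% did. For the RPE score beside the melanocyte score 0 of 8 passed without ZT4 replicate 1, 2 without ZT4 replicate 2, and 3 without ZT2 replicate 2, ZT4 replicate 4, ZT9 replicate 4 or ZT14 replicate 2. The melanocyte list did not move as 1. Sox10 and Ednrb were positively correlated with all 8 genes (r from 0.21 to 0.72 and from 0.39 to 0.78), as was Pax3 (0.04 to 0.45). Cdh19 was positive with 7 (-0.03 to 0.48) and Mc1r with 3 (-0.21 to 0.18). Kit and Erbb3 were negatively correlated with all 8 (r from -0.34 to -0.05 and from -0.56 to -0.24). Several of these markers, Sox10, Ednrb, Erbb3 and Cdh19 among them, are also present in other cells. For r Ednrb passed with 7 of 8 genes, Sox10 and Erbb3 with 3 each, Cdh19 with 2, Pax3 with 1, and Kit and Mc1r with 0 (permutation tests adjusted over 136 relations of 8 genes with 17 regulators and receptors).

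Mitf, the regulator of pigment cells, was the 1 of 17 such genes that passed with 8 of 8 members in both r (0.56 for Gpr143 to 0.74 for Tyr) and rho (0.56 to 0.73), with adjusted p at most 0.0079 for r and 0.011 for rho (permutation tests). Its level was modest, 12.6 to 58.4 FPKM with a median of 24.8 FPKM. Without the 2 samples farthest from the median of Mitf r was 0.54 to 0.73. It was 0.62 to 0.80 in left eyes, 0.32 to 0.82 in right eyes, 0.74 to 0.89 in the run of 8 and -0.16 to 0.52 in the run of 10. Otx2, which acts with Mitf in the RPE, passed with 5 of 8 in r and 2 in rho, and its r reached 0.74 with Oca2. Tfec, a relative of Mitf, was at least 1 FPKM in 7 of 30 samples and passed with 0 of 8. The share of all genes tested that would pass with 8 of 8 was not counted, so the Mitf count holds only among the 17. Single genes reached a higher r than Mitf did, both within the 17, such as Ednrb with Slc45a2 (0.78), and outside them, such as Igfbp5 with Tyrp1 (0.87).

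Of 45 other pigment genes, 44 were found under their names and tested. None passed the rhythm threshold, and 6 (13.6%) had an unadjusted p under 0.05, against 8.76% of all genes: Edn3, Kitl, Mlph, Sox10, Mitf and Tfeb. The 3 smallest p were those of Edn3, the endothelin that acts on Ednrb, Kitl, the ligand of Kit, and Mlph, which links melanosomes to myosin. Their amplitudes were 0.33 ± 0.08 (SE; adjusted p = 0.29, limma), 0.34 ± 0.11 (0.48) and 0.31 ± 0.10 (0.49), with fitted peaks at ZT15.2, ZT13.8 and ZT16.3 h. With the RPE score 8 of the 44 (18.2%) passed, against 2.84% of all genes, all with positive slopes: Otx2 (0.80 ± 0.15), Sox10, Ednrb, the melanosome proteins Slc24a5 (0.67 ± 0.15) and Atp7a, and the transport proteins Mlph, Myrip and Myo5a (1.53 ± 0.27). Without ZT4 replicate 1 only Sox10 still passed (slope 1.14, adjusted p = 0.044, limma), and the slope of Myo5a was 0.88.

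The genes most like each member over the 30 samples were ranked by Pearson r among all tested genes, as a description with shared libraries and depth. For Slc45a2 the first was Slc24a5, an ion exchanger of pigment cells (r = 0.91), for Dct it was Gpnmb, a relative of Pmel (0.87), and for Pmel it was Tyrp1 (0.87). Next to Slc45a2 came Crispld2 and Ctsb, next to Dct Ltbp3 and Shisa2, and next to Pmel Sdc3 and Colec12. For Tyrp1 the 3 were 9430020K01Rik (0.89), Igfbp5 and Pmel, and for Mlana Igfbp7 (0.86), Islr and Fkbp9. Tyr was most like Capn6 (0.81), Sort1 and Tgoln1, Oca2 most like Heph (0.85), Fads3 and Sptbn1, and Gpr143 most like Csf1r, a macrophage marker (0.79), Fam213a and Tspan10.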

How the data were processed

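RNA was measured in 30 samples of mouse RPE, 1 per mouse. The deposited values are FPKM, computed by the authors per length and depth, for 51904 genes with Ensembl IDs. Decimal commas were read as points. The submitters' processing notes give STAR, Cufflinks and DESeq2 as tools and mm10 as the build, with no versions, roles or order, and the annotation and strand setting are not given in the sources used here. Single reads of 75 bases had been run, per the labels' protocols.

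Groups came from the labelled zeitgeber time. The 16741 genes that reached 1 FPKM in 5 or more samples were tested on log2(FPKM + 1) with limma 3.58.1 in R 4.3.3 (variance trend; Benjamini-Hochberg adjustment over all tested genes, threshold 0.05). A marker score is the mean log2(FPKM + 1) of a marker list. Of the fits only the rhythm fit was tested on simulated data. Correlations used 100000 permutations (SciPy 1.17.1), and fewer in the subsets by eye or by run of animal numbers. Depth was estimated from the step between low values of genes with 1 transcript, since no read counts were used. Positions are from GENCODE M21 (GRCm38, the assembly also called mm10), which held 51625 of the 51904 gene IDs.

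The 8 genes and all gene lists were chosen with earlier results of these data known. Named besides the 8 genes were the other pigment genes past the rhythm threshold, or else the 3 with the smallest p, regulators and receptors where a result turned on them, the 3 genes most correlated with each of the 8, and markers beside results they move with. The alternatives tried were another pseudocount, no filter, no variance trend, rescaled FPKM, marker scores or eye as terms, runs of animal numbers as a block, and leaving out each sample.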

Additional observations from a re-analysis of the deposited data

Results flagged for a closer look

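In 48 sets of 5 mice (8 genes at 6 time points) 2 held a mouse far from the other 4 by Dixon's test, where chance gives about 1 in 20. Both were ZT4 replicate 1. Tyrp1 was 276 FPKM there against 779 to 1013 FPKM in the other 4 mice, and Gpr143 was 5.39 FPKM against 22.0 to 32.7 FPKM. In the same sample all 8 genes were among their 3 lowest values, the RPE marker score was the lowest of 30 and the surface epithelium score the second highest; the part of these tissues in the low values was not tested.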

How the results depend on the processing

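No paired analysis was possible because the replicate numbers follow accession order and only name samples. In every alternative run, 0 of 8 members passed in the rhythm, the 6 time points, day against night, the steps and the melanocyte score. Over all genes, leaving out 1 sample gave 14 to 24 rhythm calls, 11 to 16 for the 6 time points, 5 to 7 for day against night and 0 to 1 for the melanocyte score (1 with no time term). The 9 calls over all steps became 1 with a pseudocount of 0.1, 4 with the RPE score as a term and 3 to 111 with 1 sample left out, the most without ZT14 replicate 3 (111), ZT9 replicate 1 (81) and ZT4 replicate 1 (43). With the RPE score as a term day against night gave 3.

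The RPE score result moved most. Its calls were 203 genes and 3 members with a pseudocount of 0.1, 1457 genes with no time term, 212 genes and 2 members with the stroma score, 130 and 1 with the surface epithelium score, and 117 and 0 without ZT14 replicate 3 and ZT4 replicate 1 (the last 3 chosen after seeing the data). With 1 sample left out they were 95 to 654 genes and 0 to 6 members, and beside the melanocyte score 42 to 522 genes and 0 to 5 members, in both the fewest without ZT4 replicate 1 and the most genes without ZT14 replicate 3. Beside the melanocyte score 179 genes were called without ZT4 replicate 2 and 211 without ZT4 replicate 4. The melanocyte score beside the RPE score gave 0 to 4. Of 28 pairs, 27 to 28 passed with 1 sample left out, 10 in right eyes and 0 in the run of 10 animals, subsets also chosen after seeing the data. The cause was not tested.

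Signs changed only in values that did not pass: the day-night difference of Gpr143 (0.19 with the RPE score as a term, and -0.18 to 0.069 with 1 sample left out) and of Dct (-0.058 to 0.082), and the melanocyte slope of Dct (-0.021 with a pseudocount of 0.1, and -0.13 to 0.39) and Oca2 (-0.044 with that pseudocount). Day-night estimates of Oca2 and Slc45a2 had an unadjusted p under 0.05 in 8 and 6 of the fits, with adjusted p of at least 0.34 and 0.35, and that of Tyrp1 in 1. So did the rhythm of Tyr in 2 (one without ZT14 replicate 3, the other also without ZT4 replicate 1) and of Gpr143 in 1 (amplitude 0.28 with the RPE score as a term), with adjusted p of at least 0.54 and 0.70. The amplitude of Tyr ran from 0.082, with the RPE score as a term, to 0.42.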
